A study of Mus musculus with 6 samples.

Results

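The 6 pools of fetal mouse hearts in the series were compared by how much embryonic globin RNA they held. The libraries were chosen by the level of Hba-x, the embryonic zeta chain of haemoglobin. Libraries with at least 300 CPM formed the embryonic-globin-high side, and those under 100 CPM the low side. By that rule 3 of the 6 libraries were high, namely sham 1, sham 2 and nano-TiO2 2, and 3 were low, namely sham 3, nano-TiO2 1 and nano-TiO2 3. CPM is the estimated reads of a gene scaled to a common library size, here with TMM factors, which adjust for libraries of different composition.

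All libraries came from wild-type FVB/NJ fetuses at gestational day 15, with hearts of male and female fetuses pooled. The dams, 14 in the study and 10 weeks old, spent 360 minutes a day in a whole-body inhalation chamber on 6 days within an 8-day period that began at gestational day 5. The sham dams breathed filtered room air. The nano-TiO2 dams breathed aerosolised titanium dioxide nanoparticles at a target of 12 mg per m3. Each group had 3 libraries, made from fragmented total RNA kept aside as the input of an m6A immunoprecipitation. How many hearts or litters entered a pool is not given in the sources used here, so errors measure the spread between these pools. Both sides hold libraries of both exposure groups, 2 sham and 1 nano-TiO2 library on the high side and 1 and 2 on the low side.

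Embryonic globins are made by primitive red cells, which arise in the yolk sac and are the first red cells of the embryo. Definitive red cells from the fetal liver, which carry adult globins, replace them in the circulation during the second part of mouse gestation. As heart muscle matures, its cells slow their division and build up the enzymes of fatty acid oxidation, the respiratory chain and the adult forms of contractile proteins.

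The upstream sequences of the gene behind the selection, of its beta-like counterpart and of an adult alpha chain are shown because the libraries split on the first pair and not on the third. Each is the 250 bases before the start site in the RefSeq promoter table of build GRCm38.p6, written 5′ to 3′ on the gene's strand. Hba-x lies at chr11:32276350-32276599 on the plus strand, Hbb-y at chr7:103853208-103853457 on the minus strand and Hba-a1 at chr11:32283422-32283671 on the plus strand. Capitals mark GATAA, the core letters of GATA factor sites, together with CACCC, those of KLF factor sites, and the CCAAT box, each searched on both strands. No matches overlapped.
Hba-x: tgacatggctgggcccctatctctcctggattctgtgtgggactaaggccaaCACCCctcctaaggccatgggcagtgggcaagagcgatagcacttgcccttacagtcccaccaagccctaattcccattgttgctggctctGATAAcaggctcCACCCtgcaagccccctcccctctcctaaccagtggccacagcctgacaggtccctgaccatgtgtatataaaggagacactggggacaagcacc
Hbb-y: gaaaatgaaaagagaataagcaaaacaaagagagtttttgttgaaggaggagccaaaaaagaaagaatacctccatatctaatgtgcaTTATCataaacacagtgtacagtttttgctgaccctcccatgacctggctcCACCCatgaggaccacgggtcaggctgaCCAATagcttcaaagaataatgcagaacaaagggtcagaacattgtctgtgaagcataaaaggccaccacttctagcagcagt
Hba-a1: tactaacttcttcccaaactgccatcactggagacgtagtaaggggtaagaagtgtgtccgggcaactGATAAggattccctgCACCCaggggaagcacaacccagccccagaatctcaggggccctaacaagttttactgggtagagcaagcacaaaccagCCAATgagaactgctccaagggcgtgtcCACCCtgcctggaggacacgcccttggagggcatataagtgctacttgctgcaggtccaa
GATAA occurred 1 time in each window. CACCC occurred 2 times in the Hba-x window, 1 time in that of Hbb-y and 2 times in that of Hba-a1. CCAAT occurred in the windows of Hbb-y and Hba-a1 and not in these letters of the Hba-x window. Of 32851 promoter windows of the same length, 22.6% held GATAA, 52.0% CACCC and 33.8% CCAAT, so a match describes the sequence and no more.

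The values behind the selection are given as a description. Hba-x stood at 911 and 604 CPM in sham 1 and sham 2 and at 678 CPM in nano-TiO2 2. It stood at 40.0 CPM in sham 3, 30.4 in nano-TiO2 1 and 24.5 in nano-TiO2 3. The library just inside the high threshold was sham 2 and the one just outside it sham 3, and none lay between 100 and 300 CPM. With exposure as a covariate the log2 difference of high minus low was 4.44 ± 0.21 (SE of the fit, 3 libraries a side).

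Hbb-y, the embryonic epsilon-like beta chain, split the libraries in the same way. Its levels were 4344, 2298 and 3160 CPM on the high side (sham 1, sham 2, nano-TiO2 2) and 108, 60.4 and 41.4 CPM on the low side (sham 3, nano-TiO2 1, nano-TiO2 3), a log2 difference of 5.45 ± 0.51. Hbb-bh1, an embryonic beta-like chain of primitive red cells, was far rarer, with 26.1, 12.9 and 22.4 CPM against 1.27, 1.15 and 0.248 CPM. The lowest of those rested on 6 reads in nano-TiO2 3, and the log2 difference was 4.54 ± 0.59. The same 3 libraries were highest by every embryonic globin measure tried: Hba-x under other scalings and in TPM, which also corrects for transcript length, Hbb-y, Hbb-bh1 and the embryonic share of haemoglobin reads.

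Adult globins did not follow the sides. Hba-a1, an adult alpha chain, stood at 58812, 142840 and 20201 CPM in the high libraries and at 43787, 35238 and 33398 CPM in the low ones. Within sham the high libraries lay above the low one, and within nano-TiO2 the high library lay below both low ones. Hbb-bs, an adult beta chain, stood at 33785, 77522 and 9873 CPM against 52401, 36100 and 30735 CPM, and its groups overlapped within sham. Hba-a1 and Hba-a2 are near-identical copies, as are Hbb-bs and Hbb-bt, so the division of reads within each pair is uncertain. Of 6 adult and other haemoglobin genes tested none lay on the same side in both exposure groups.

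The high libraries therefore differed from each other in how much of their haemoglobin was embryonic. Embryonic chains made up 10.1% of beta-like TPM in sham 1, 2.54% in sham 2 and 22.3% in nano-TiO2 2. In the low libraries that share was 0.190% (sham 3), 0.157% (nano-TiO2 1) and 0.124% (nano-TiO2 3). All haemoglobin genes together took 12.4%, 23.4% and 5.68% of reads on the high side and 10.6%, 10.2% and 9.42% on the low side. So nano-TiO2 2 had the smallest haemoglobin total and the largest embryonic share, and sham 2 the largest total and the smallest embryonic share among the high libraries. In bulk RNA, fewer cells of a type and less RNA per cell cannot be told apart.

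**Figure D1:**
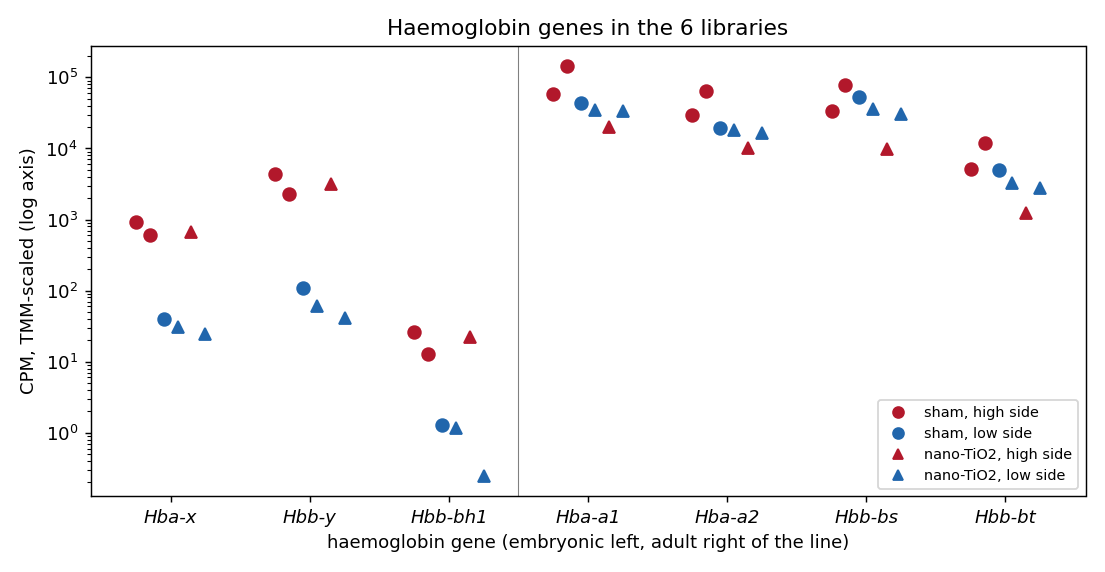
TMM-scaled CPM (log axis) of 3 embryonic and 4 adult haemoglobin genes, 1 point per library, with colour for the side and shape for the exposure group. The embryonic genes part the libraries into 911 to 604 against 40.0 to 24.5 CPM for Hba-x, while the adult genes overlap.

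Before the wider readout, some libraries stood apart in other ways. Estimated reads ranged from 12881945 to 22720009 per library. Summed hepatocyte markers were 1810 CPM in sham 2 and 38.3 to 164 CPM in the other libraries, and Alb, serum albumin, stood at 157 CPM there against 1.09 to 18.7 CPM elsewhere. Granulocyte markers summed to 108 CPM in sham 2 and 5.75 to 19.8 CPM in the others. Lung epithelium markers summed to 1530 CPM in nano-TiO2 3, with Sftpc, a surfactant protein, at 1394 CPM. The same sum was 0.668 CPM in nano-TiO2 1 and 13.4 to 299 CPM in the remaining libraries. None of 12 tested hepatocyte genes, 7 granulocyte genes or 7 lung genes lay on the same side in both exposure groups. For lung genes this changed without nano-TiO2 3. Then 6 of 7 were higher on the high side, with a median log2 difference of 4.48, where 25.8% of all genes were. Without sham 2 and nano-TiO2 3 together all 7 were, with a median of 5.11, where 38.5% of all genes were. The part of lung transcripts in the differences below was not tested. Y-linked transcripts were lowest in sham 1, where Eif2s3y stood at 2.41 CPM against 7.25 to 18.1 CPM in the other pools, and 3 of 4 tested Y-linked genes were lower on the high side in both exposure groups. The part of the pools' sex make-up in the differences below was not tested.

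Across genes the sides were compared without haemoglobin genes, with exposure as a covariate. Because the libraries were selected on a level measured in them, no p-value is given for this comparison. A gene was counted as higher when its log2 difference was at least 1 and every high library exceeded every low library within both exposure groups, and as lower in the mirrored case. Of 13920 genes tested, 260 (1.87%) were higher and 232 (1.67%) lower. With order alone and no minimum size, 2799 (20.1%) lay above and 3511 (25.2%) below within both groups. The median gene differed by -0.008 on the log2 scale. Leaving out a library moved the counts: higher genes numbered 454 without sham 2 and 444 without nano-TiO2 3. Higher and lower genes numbered 467 and 509 without sham 3, and 716 and 459 without nano-TiO2 2, when the order could be judged in only 1 exposure group. Most genes past the fold were rare transcripts: 192 of the 260 higher genes and 129 of the 232 lower genes had a mean under 3.43 CPM, in the lowest of 5 equal bins of expression. The counts also differed by GC content. Of the lower genes 126 lay in the lowest of 5 equal GC bins and 17 in the highest. Of the higher genes 16 lay in the lowest bin and 98 in the highest. With the trends of each library over transcript length and GC content removed, 229 were higher and 166 lower. Of these, 190 and 124 were among the 260 and 232.

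Col2a1, the main collagen of cartilage, had the largest difference toward the high side among named genes that averaged at least 5 CPM and lay above within both exposure groups. It stood at 16.4 and 10.7 CPM in sham 1 and sham 2 and 34.7 CPM in nano-TiO2 2. Its levels were 2.80, 1.28 and 2.36 CPM in sham 3, nano-TiO2 1 and nano-TiO2 3, a log2 difference of 3.30 ± 0.51. The groups did not overlap, and the level in nano-TiO2 2 was the highest of all. Col9a1, a chain of the collagen that decorates type II fibrils, had 4.63, 3.97 and 16.6 CPM against 1.73, 1.52 and 3.43 CPM, a log2 difference of 2.08 ± 0.40. The genes of its other chains, Col9a2 (1.07) and Col9a3 (1.23), were also counted as higher and were looked up after the values of Col9a1 were seen.

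Col2a1 was 1 of the 12 largest differences toward the high side, and the others are given next. Gata5, a zinc-finger factor of the early heart and endocardium, was at 17.0, 13.8 and 18.6 CPM against 5.29, 4.13 and 7.11 CPM, a log2 difference of 1.63 ± 0.24. Bex2 was at 13.2, 13.8 and 15.1 CPM against 4.07, 3.89 and 4.71 CPM, a log2 difference of 1.77 with the smallest SE among the 12 (0.19). Hsd3b6, a steroid dehydrogenase, was at 19.1, 13.7 and 35.1 CPM against 3.00, 4.98 and 3.14 CPM (2.82 ± 0.26). Each of these had all 3 high libraries above all 3 low ones. Nnat, an imprinted membrane protein gene, did not separate across exposure groups, since sham 2 (48.1 CPM) lay below nano-TiO2 3 (53.6 CPM). Krt15, Klf1 and Lef1, given next, also overlapped across exposure groups. For Lef1, sham 2 (3.22 CPM) lay below nano-TiO2 3 (5.42 CPM). The remaining members of the 12 were Krt15 (3.01 ± 2.02), Klf1 (2.28 ± 1.61), Lef1, a partner of beta-catenin in Wnt signalling (1.78 ± 0.64), Serinc2 (1.76 ± 0.27), Dusp9, a phosphatase of MAP kinases (1.74 ± 0.25) and Dact2 (1.44 ± 0.31). Krt15 and Klf1 each had 1 library far above the rest, with Krt15 at 30.1 CPM in sham 1 and 0.407 to 6.62 CPM elsewhere, and Klf1 at 42.3 CPM in sham 2.

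Of the 12 largest differences toward the low side under the same conditions, those of Cavin4 and Aspn were the largest. Cavin4, a muscle protein of caveolae, the small pits of the cell membrane, stood at 6.38, 10.9 and 6.69 CPM in the high libraries and 26.4, 33.4 and 30.0 CPM in the low ones (-1.92 ± 0.25). Aspn, a small matrix proteoglycan, stood at 7.04, 12.1 and 8.12 CPM against 36.9, 31.2 and 24.1 CPM (-1.87 ± 0.23). Both separated all 3 high from all 3 low libraries. Rgs5, a G protein regulator that marks pericytes, was at 45.5, 53.3 and 37.4 CPM against 124, 124 and 96.9 CPM (-1.44 ± 0.14), and Higd1b, also a pericyte gene, differed by -1.51 ± 0.28. The 12 also held Cd36, the fatty acid uptake receptor (-1.43 ± 0.18), Nostrin, an endothelial regulator of nitric oxide synthase (-1.65 ± 0.27), and Ly6c1 (-1.56 ± 0.24). The others were Myh8 (-1.76 ± 0.84), Adhfe1 (-1.67 ± 0.22), Pde1c, a cyclic nucleotide phosphodiesterase (-1.55 ± 0.23), Ptgds, prostaglandin D synthase (-1.44 ± 0.19), and Myom2, an M-band protein of the sarcomere (-1.41 ± 0.12). Myh8, a perinatal skeletal myosin, was highest in nano-TiO2 1 at 21.0 CPM, the library with the highest summed skeletal muscle markers (85.6 CPM against 12.0 to 33.7 CPM).

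**Figure D2:**
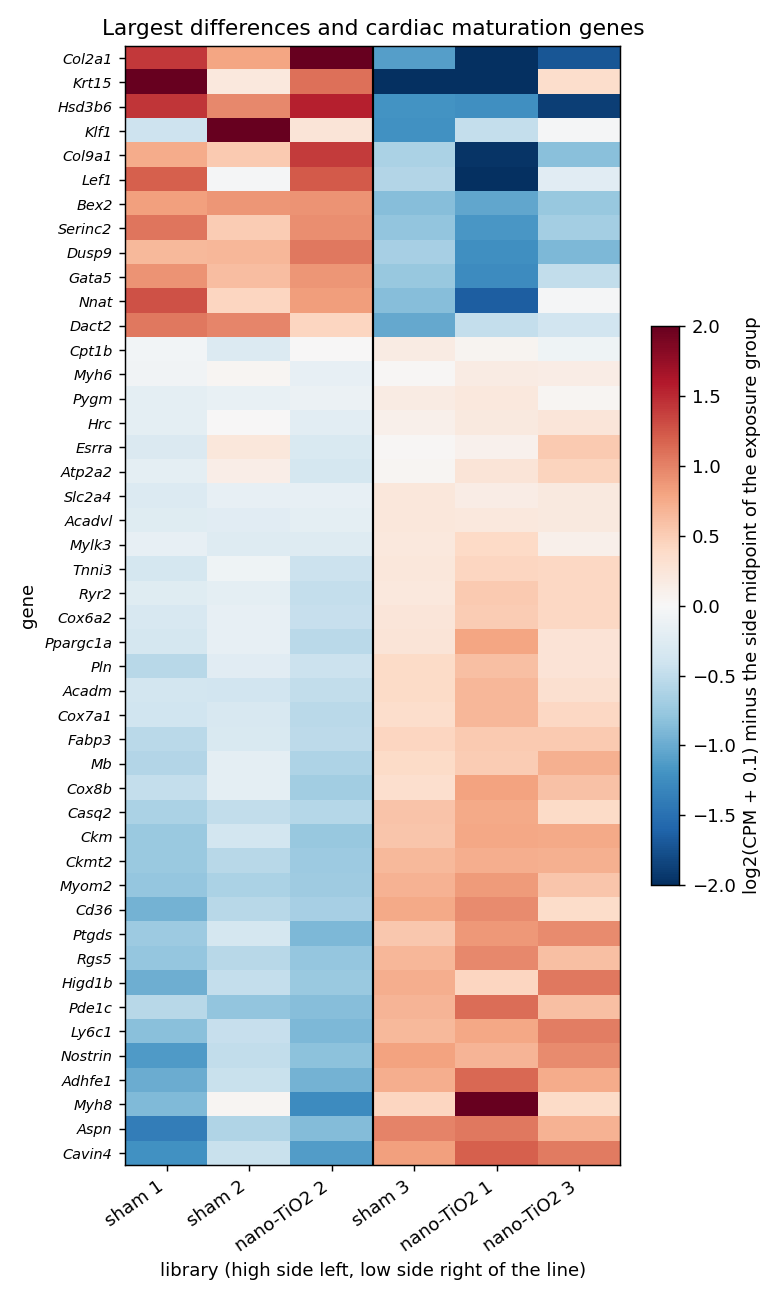
Each row is a gene and each column a library, coloured by log2(CPM + 0.1) minus the midpoint of the high and low means of its own exposure group. The rows are the 12 largest and 12 smallest differences and the 24 cardiac maturation genes. Col2a1 (3.30) heads the rows that are higher on the high side and Cavin4 (-1.92) ends those that are lower.

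Genes that rise as heart muscle matures were lower in the embryonic-globin-high libraries. Of 24 tested, 20 lay below within both exposure groups and none above, where 25.2% of all genes lay below, and the median log2 difference was -0.76 against -0.008 over all genes. Ckm, muscle creatine kinase, stood at 2451, 3188 and 1184 CPM on the high side and at 6058, 3419 and 3392 CPM on the low side, a log2 difference of -1.31 ± 0.13. The lowest library was nano-TiO2 2 and the highest sham 3. Tnni3, the adult cardiac troponin I, stood at 2255, 2710 and 1284 CPM against 3365, 2336 and 2314 CPM (-0.65 ± 0.11), and here sham 2 lay above the low nano-TiO2 libraries. Fabp3, the heart fatty acid binding protein, stood at 1473, 1728 and 852 CPM against 2875, 1752 and 1746 CPM (-0.94 ± 0.09). Myh6, the adult atrial and fast myosin heavy chain, had nearly level values of 3047, 3276 and 2543 CPM against 3250, 3163 and 3157 CPM and lay on neither side.

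The 6 members that passed the 2-fold mark toward the low side are named after their values were seen. They were Cd36 (-1.43), Myom2 (-1.41), Ckmt2, the mitochondrial creatine kinase of muscle (-1.38), Ckm (-1.31), Casq2, the calcium store protein of the sarcoplasmic reticulum (-1.14), and Cox8b, a muscle subunit of cytochrome oxidase (-1.02). Ckmt2 stood at 54.2, 61.8 and 39.7 CPM against 144, 109 and 107 CPM. Myom2 stood at 42.9, 47.3 and 37.7 CPM against 119, 111 and 90.8 CPM. Both separated all libraries of the sides whatever their exposure. Several members are also expressed in skeletal muscle. Summed skeletal muscle markers were 22.3, 21.6 and 12.0 CPM in the high libraries and 33.7, 85.6 and 13.5 CPM in the low ones, so the sum was lower on the high side within both exposure groups. Of 5 skeletal muscle genes tested 1 lay below and none above, where 25.2% of all genes lay below. Their median was -1.76 and moved to -0.50 without nano-TiO2 1. The part of skeletal muscle genes in the difference was not tested. Without sham 2 and nano-TiO2 3 together the median of the maturation genes was -0.82. All 24 then lay below, where order is judged on 1 library against 1 in each exposure group and 34.9% of all genes lay below. In the same setting 4 of 5 skeletal muscle genes also lay below, with a median of -2.30. The median of the maturation genes stayed between -0.50 and -0.92 when any 1 library was left out. It was -0.66 with the trends of each library over transcript length and GC content removed.

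Fetal forms of heart muscle genes showed no common direction. Of 12 tested, 4 lay above, 3 below and 5 on neither side, with a median of 0.00, where 20.1% of all genes lay above and 25.2% below. Myh7, the fetal ventricular myosin of the mouse, stood at 10945, 10143 and 8769 CPM against 12827, 9724 and 8316 CPM (-0.16 ± 0.09). Slc2a1, the glucose transporter of immature muscle, stood at 213, 196 and 209 CPM against 153, 100 and 110 CPM (0.71 ± 0.13), with no overlap. General cardiomyocyte markers had a median of -0.14, with 3 of 17 above and 7 below. Actc1, cardiac alpha actin, was 13413, 14296 and 8584 CPM against 13351, 10039 and 9821 CPM, so the labelled tissue was present at a high level in every pool. Gata4, a cardiac transcription factor, was 241, 253 and 201 CPM against 153, 189 and 158 CPM (0.46 ± 0.13).

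Mitochondrial fuel genes followed the maturation genes. Of 16 fatty acid oxidation genes 12 lay below within both exposure groups and none above, where 25.2% of all genes lay below. Their median log2 difference was -0.46. The list shares Fabp3, Cd36, Cpt1b, Acadm and Acadvl with the maturation list, so the lists are not separate evidence. Acaa2, which carries out the last step of beta-oxidation, stood at 795, 809 and 509 CPM against 1090, 774 and 733 CPM (-0.50 ± 0.08). Of 36 nuclear-encoded subunits of respiratory complex I, 32 lay below, against 25.2% of all genes, and none above. The median over complex I was -0.44, with a range from -0.90 to -0.11. Ndufv2, a core subunit of its electron input module, stood at 713, 771 and 420 CPM against 1497, 754 and 695 CPM (-0.90 ± 0.09). Its value in sham 2 exceeded both low nano-TiO2 libraries, so the order holds within exposure groups and not across them. Ndufb8, an accessory subunit, stood at 1604, 1801 and 903 CPM against 2465, 1421 and 1407 CPM (-0.59 ± 0.08).

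The 13 protein genes of the mitochondrial genome had a median of -0.70, with 9 below and none above, where 25.2% of all genes lay below. This turned with the processing. Without nano-TiO2 2 the median was -0.43. mt-Cytb, the cytochrome b of complex III, stood at 5239, 7759 and 3230 CPM against 11503, 6515 and 5370 CPM (-0.85 ± 0.17). After removal of the length and GC trends the median was 0.02, with 3 above and 1 below. The nuclear complex I genes kept a median of -0.40 under that setting, with 32 of 36 below, and fatty acid oxidation genes one of -0.41, with 14 of 16 below. Of all genes 21.1% then lay below. Over all genes the high-minus-low difference moved with GC content: its median was -0.39 in the lowest of 5 equal bins of GC content and 0.18 in the highest. By transcript length it stayed between -0.08 and 0.04. With the length and GC trends removed, 41 of the 154 genes followed one by one moved by more than their spread between libraries, and 4 more changed direction.

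**Figure D3:**
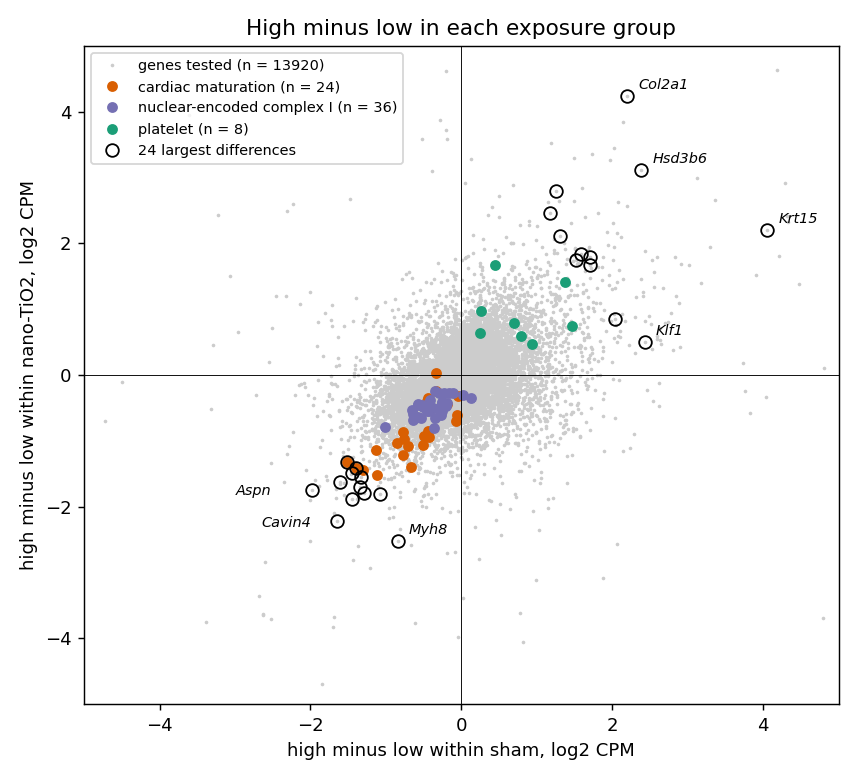
High minus low in log2 CPM within sham (horizontal axis) and within nano-TiO2 (vertical axis), with 13920 genes in grey and 9 of them outside the axes. Cardiac maturation and complex I genes lie mostly in the lower left, where both groups are negative, and platelet genes in the upper right.

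Genes of the red cell lineage were mixed, although embryonic globin chose the libraries. Of 17 erythroid transcription regulators tested, 5 lay above and 1 below within both exposure groups, where 20.1% of all genes lay above and 25.2% below. Their median was 0.33 and moved to 0.14 without sham 3 and 0.64 without nano-TiO2 2. Klf1, the factor that drives adult beta globin, was 4.35, 42.3 and 0.875 CPM against 2.44, 0.486 and 0.703 CPM. Epor, the erythropoietin receptor, was 3.92, 8.45 and 5.31 CPM against 2.14, 1.58 and 1.57 CPM (1.64 ± 0.34), with no overlap. Tal1, a blood stem cell factor, was 5.25, 16.8 and 9.25 CPM against 3.71, 4.49 and 4.71 CPM (1.27 ± 0.46). Klf1, Epor and Tal1 were each highest in sham 2, the library with the highest liver markers. Klf1, Tal1 and Epor were named here because they were counted as higher, with Nfe2 (1.69 ± 0.99) as the fourth. Gfi1b (2.94 ± 1.59) and Gata1 (2.56 ± 1.39) differed by more but were not counted, since sham 1 lay below sham 3. Both were highest in sham 2. Jak2 was the gene below (-0.89 ± 0.31).

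Membrane, haem and iron genes are set beside the shares over all genes, 20.1% above and 25.2% below. Slc4a1, the anion exchanger of red cells, was 98.2, 308 and 32.4 CPM against 55.6, 27.5 and 21.3 CPM (1.16 ± 0.76), again highest in sham 2. Of 17 red cell membrane genes 4 lay above and 2 below, and of 12 haem synthesis genes 2 above and 1 below. Alas2, the first enzyme of red cell haem synthesis, was 411, 904 and 158 CPM against 356, 306 and 253 CPM and lay on neither side, with the same opposite order in the exposure groups as Hba-a1. None of 7 red cell cytosol genes lay on the same side in both groups. Hmox1, the haem-degrading oxygenase, was 16.1, 21.8 and 15.3 CPM against 7.94, 9.11 and 9.10 CPM (1.00 ± 0.20). Ftl1, the ferritin light chain that stores iron, was 6247, 7569 and 4277 CPM against 4680, 3182 and 3368 CPM (0.47 ± 0.10).

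Platelet genes ran together toward the high side. Of 8 tested 6 lay above within both exposure groups and none below, where 20.1% of all genes lay above, and the median was 0.74. Pf4, a chemokine of platelet granules, stood at 24.2, 33.2 and 16.2 CPM against 14.7, 11.7 and 11.8 CPM (0.72 ± 0.19). Itga2b, the platelet fibrinogen receptor chain, stood at 13.2, 16.6 and 9.50 CPM against 9.06, 4.98 and 5.91 CPM (0.76 ± 0.19). Both genes were highest in sham 2, and without sham 2 and nano-TiO2 3 together the median was 0.70. Then 7 of 8 lay above, where 38.5% of all genes did.

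Other cell types of the heart gave smaller or divided counts, to be read beside the 20.1% of all genes above and 25.2% below. Endocardial genes had a median of 0.52 over 5 genes, 3 above and none below. Plvap, a protein of endothelial diaphragms, stood at 243, 240 and 230 CPM against 154, 133 and 142 CPM (0.69 ± 0.09), and its sides did not overlap. Endothelial genes had 2 of 13 above and 3 below, with a median of -0.14. Among 8 smooth muscle and pericyte genes 3 lay above and 2 below. Cnn1, a calponin of smooth muscle, stood at 281, 258 and 256 CPM against 165, 136 and 129 CPM (0.83 ± 0.09), opposite to the pericyte gene Rgs5. Among 11 fibroblast and valve genes 3 lay above and 2 below, the latter being Dcn, decorin (-1.06 ± 0.15), and Postn, periostin (-1.13 ± 0.23). The list's median was 0.08, its highest difference was 1.52, and 1 gene was counted as higher. Epicardial genes divided 3 above to 2 below of 11, and macrophage genes 3 above to 1 below of 12.

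Growth genes that are known to be shut down as gestation proceeds were mostly higher on the high side. Of 6 tested 4 lay above within both exposure groups and none below, where 20.1% of all genes lay above, with a median of 0.45. The median rested on single libraries: it was 0.17 without nano-TiO2 2 and 0.69 without sham 3. Without nano-TiO2 2, 4 of 7 genes lay above and 2 below, where 35.6% of all genes lay above and 38.9% below. Igf2bp1, a fetal RNA-binding protein, was 99.5, 83.4 and 173 CPM against 65.6, 77.6 and 70.0 CPM (0.86 ± 0.17). Hmga2, a chromatin protein of growing embryonic tissue, was 8.27, 5.91 and 19.9 CPM against 3.66, 7.47 and 8.10 CPM (1.17 ± 0.21), with overlap across the exposure groups. Lin28b was on neither side (-0.52 ± 0.40). Of 29 cell cycle genes 12 lay above and 5 below, with a median of 0.12 that moved to 0.08 without sham 1, 0.23 without sham 2 and 0.21 without sham 3. Mcm2, a helicase subunit loaded at replication origins, stood at 202, 184 and 163 CPM against 158, 102 and 99.1 CPM (0.49 ± 0.11). Of 15 glycolysis genes 5 lay above and 1 below, and of 82 cytosolic ribosomal protein genes 19 above and 22 below. The shares over all genes were 20.1% above and 25.2% below.

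**Figure D4:**
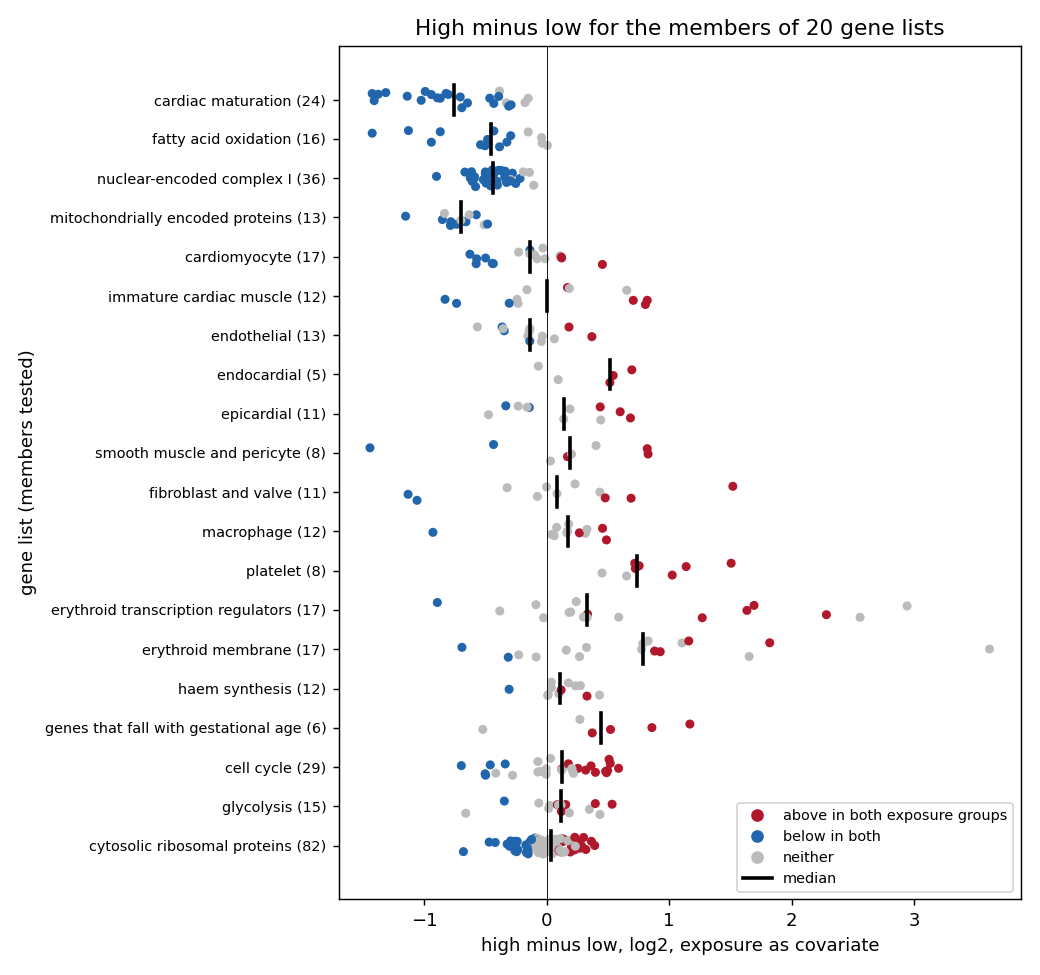
Each point is a gene of the named list, placed by its log2 difference of high minus low, and the black bar is the list's median. Cardiac maturation (-0.76), complex I (-0.44) and fatty acid oxidation (-0.46) lie left of 0, and platelet (0.74) and endocardial (0.52) genes lie right of it.

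Exposure itself comes from the labels and could be tested with the side as a term. That term was set from Hba-x in these same libraries, and the sides hold unequal numbers of each exposure group. The p-values and counts with the side as a term therefore depend on it. By edgeR's quasi-likelihood test, with Benjamini-Hochberg adjustment and a threshold of 0.05, 2455 of 13920 genes (17.6%) were higher and 2556 (18.4%) lower in nano-TiO2 libraries. With exposure as the only term the counts were 2154 and 1777, of which 2081 and 1743 were also called with the side as a term. The split rested on the scaling: with library totals only it was 5126 higher and 206 lower, and the median of all genes moved to 0.44. With the length and GC trends removed the counts were 340 higher and 956 lower. Without sham 3 the counts were 969 and 759, without nano-TiO2 2 they were 1266 and 1566, and without sham 1 the count of lower genes was 1583. Of the 24 genes with the largest high-minus-low differences 3 passed this test. Ptgds was lower in nano-TiO2 by a log2 difference of -1.04 ± 0.19 (edgeR adjusted p = 0.00647), Col9a1 was higher by 1.32 ± 0.39 (edgeR adjusted p = 0.0304) and Hsd3b6 was higher by 0.81 ± 0.25 (edgeR adjusted p = 0.0325).

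For the maturation and complex I genes exposure and side are given next to each other, from the same 6 libraries. With the side as a term 14 of 24 maturation genes fell and 3 rose with exposure, and 35 of 36 complex I genes fell. Over all genes 18.4% fell and 17.6% rose. With library totals only, 5 maturation genes fell and 5 rose, and 20 complex I genes fell and 1 rose. Of all 13920 genes 206 then fell and 5126 rose. In limma on log2(TPM + 1) no gene of either list fell, where 48 of 11924 genes fell. There 6 maturation genes and 1 complex I gene rose, as did 5223 of all genes. With the length and GC trends removed 8 and 12 fell, where 956 of 13920 genes fell. Without sham 3 the count of falling maturation genes was 8, where 759 of 14133 genes fell. Ckm, for example, was lower in nano-TiO2 with the side as a term (log2 difference -1.04, edgeR adjusted p = 0.00119). It was also lower on the high side within both exposure groups. Without regard to side its levels overlapped, at 2451, 3188 and 6058 CPM in sham and 3419, 1184 and 3392 CPM in nano-TiO2. Ryr2, the calcium release channel of heart muscle, was higher in nano-TiO2 (0.99, edgeR adjusted p = 0.000997) and lower on the high side (-0.69 ± 0.13), at 44.7, 45.9 and 75.3 CPM against 61.3, 151 and 140 CPM. Over all genes the exposure difference rose with transcript length, from a median of -0.47 in the shortest of 5 equal bins to 0.65 in the longest. Ryr2, with a length of 14845 bases, lies in the longest bin. Of 16 m6A writers, erasers and readers, the machinery of the RNA mark the study was made for, 3 lay below and none above between the sides. The shares over all genes were 25.2% below and 20.1% above. The median of the 16 was -0.19 and moved to -0.02 with the length and GC trends removed. Fto, an m6A eraser, stood at 158, 115 and 144 CPM on the high side and 147, 111 and 94.9 CPM on the low side.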

How the data were processed

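The 6 input libraries of pooled fetal hearts were analysed. Estimated counts of reads per transcript and TPM values were made with Salmon and deposited by the authors, per the file headers. The deposited table of the series holds a signal per bin of about 25 bases, divided by the authors by 1 factor per library, and whole reads were recovered for 100% of the values (tolerance 0.001). Salmon 1.5.2, HISAT2 2.2.1, DESeq2 1.34.0 and the build GRCm39 are named, with no role, per the submitters' processing notes.

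Estimated counts were summed per gene (GENCODE M21 names, 1062 of 116747 transcripts unmatched) and rounded. With edgeR 4.0.16 (TMM, filterByExpr, robust quasi-likelihood fit), side and exposure were terms for 13930 genes, and haemoglobin genes were left out of counts. Sides were selected on these libraries, so only exposure was tested, with Benjamini-Hochberg adjustment. The members and the 37 gene lists were chosen with earlier results of these data known. Named genes are the haemoglobin genes, the 12 largest and 12 smallest differences among genes averaging 5 CPM or more that have ordinary symbols and the same direction within both exposure groups, and up to 4 members of each list with the highest mean CPM; others are named as chosen after seeing values, or as further members of a list. Libraries of a group differed beyond sampling noise in 46.6% to 63.4% of genes, so none was counted as a copy. Alternatives used DESeq2 1.42.0, limma 3.58.1 and mgcv 1.9.3. The fits were tested on simulated data.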

Additional observations from a re-analysis of the deposited data

Results flagged for a closer look

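Some quantities ran one way between the sides within sham and the opposite way within nano-TiO2, in every library. The difference of these differences was not tested. For the summed CPM of adult and other haemoglobin genes it was 1.90 on the log2 scale, 0.81 within sham and -1.09 within nano-TiO2. Of its genes, Hba-a1 (1.97), Hba-a2 (2.03) and Hbb-bt (2.08) ran the same way. Hbb-bs overlapped within sham and stood at 9873 CPM in nano-TiO2 2 against 36100 and 30735 CPM in the low nano-TiO2 libraries. Red cell lists ran alike, with 1.32 for membrane, 0.91 for haem synthesis and 0.69 for cytosol genes. The other lists with this pattern were atrial muscle (0.58) and, in the opposite order, immediate early genes (-0.38). Within sham these values include sham 2, where hepatocyte markers summed to 1810 CPM. Without it, an alternative chosen after seeing the data, the log2 difference within sham was 0.08 for the summed adult haemoglobin genes, 0.12 for membrane, 0.18 for haem synthesis, 0.15 for cytosol, 0.10 for atrial muscle and -0.13 for immediate early genes. It was 0.43 for Hba-a1, 0.61 for Hba-a2 and 0.06 for Hbb-bt. These rest on sham 1 against sham 3 alone.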

How the results depend on the processing

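The 3 libraries of each side stayed the same under each of the other measures of embryonic globin. The counts of higher and lower genes between the sides were 685 and 567 with no filter on low counts, and 173 higher with a stricter one. With the length and GC trends removed they were 229 and 166. They were 64 and 46 on log2(TPM + 1), 166 and 103 on log2(TPM + 0.1), and 547 and 428 without sham 2 and nano-TiO2 3 together, an alternative chosen after seeing the data. Leaving out each library in turn gave 314 to 716 higher and 225 to 509 lower genes. For exposure, the counts were 340 higher and 956 lower with length and GC trends removed, 5223 and 48 on log2(TPM + 1), 5112 and 54 on log2(TPM + 0.1), and 5126 and 206 by library totals alone. Leaving out each library gave 969 to 2670 higher and 759 to 2478 lower genes. With the replicate block the side counts were 461 and 934 and the exposure counts 965 and 814. Of the 154 genes followed one by one, 97 moved by more than their spread between libraries with the block. That number was 58 without sham 3, 57 without nano-TiO2 2 and 55 with no exposure covariate. The shared numbers did not pair the libraries: the correlations of deviations were -0.39, 0.02 and -0.08 for numbers 1 to 3, and no library correlated best with its own number. Directions reversed with the block for Klf1 (-0.72), Slc4a1 (-0.49) and Myl4 (-0.002), and with length and GC trends removed for Irx4 (-0.098), Eng (-0.081), mt-Co3 (0.22) and mt-Co2 (0.016). The cause was not tested. Genes with few reads have wide errors here: Hbb-bh1 had 6 to 553 reads per library.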
